A study of Mus musculus with 2 samples.

Results

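The genes studied here encode the proteins of the mitochondrial ribosome. Members were chosen by name: a gene entered when its symbol read Mrps or Mrpl, followed by a number and at most a letter a, b or c, and when it had an annotated protein-coding transcript. This gave 78 genes, 29 named Mrps for the small subunit and 49 named Mrpl for the large subunit, among 55536 annotated genes, of which 22015 are nuclear and protein-coding. The members lie on 17 chromosomes, and 5 further genes with such names are annotated pseudogenes and were left out. The rule uses no measured value, but it was set with earlier results of these data known.

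RNA was measured in the left cerebral cortex of 2 male mice of the hybrid B6CASTF1/J, a cross of the strains C57BL/6J and CAST/EiJ. Both animals were 10 days old and came from The Jackson Laboratory, and each library was made from 300 ng of total RNA with ERCC spike-ins, which are synthetic RNAs added in known proportions. They form 1 untreated group, so no test between conditions exists, and the labels number the libraries as replicates 1 and 2. The labels number the animals apart but give both the same donor identifier, so the SD over the libraries (n = 2) measures the spread of these samples, which may be technical in part. Reads were counted against the genome of 1 of these parents, without telling the alleles apart.

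Mitochondria carry a small genome of their own, and its protein-coding genes specify only subunits of the respiratory chain and of the ATP synthase. These messages are read by a dedicated ribosome whose 2 ribosomal RNAs come from the mitochondrial genome, while all its proteins are encoded in the nucleus, made in the cytosol and imported. Some of the proteins descend from bacterial ribosomal proteins and others exist only in mitochondria. Neurons depend on oxidative phosphorylation for most of their ATP.

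The libraries held 31254528 and 30218308 expected counts, and the members took 39539 and 38398 of these, or 0.127% in each. A level is given as TPM, an abundance corrected for transcript length and brought to a common total. For a transcript of 1 kb effective length, 20.5 counts in replicate 1 and 19.7 counts in replicate 2 made up 1 TPM. The labelled tissue was checked with markers of cortical glutamatergic neurons (Slc17a7, Neurod6, Tbr1 and Cux2), and 4 of 4 were detected, with a summed level of 666.0 and 653.9 TPM. The makeup of the pieces was not identical. Summed erythroid markers were at 1213 and 835.6 TPM, striatal markers at 109.7 and 71.7 TPM, oligodendrocyte markers at 251.7 and 219.5 TPM, and choroid plexus markers, of which 1 of 4 passed 1 TPM in both libraries, at 8.23 and 310.1 TPM. The part of these differences in the values below was not tested. In such bulk tissue, fewer cells of a type and less RNA per cell cannot be told apart.

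All 78 members were detected, which here means 1 TPM or more in both libraries, against 59.6% of nuclear protein-coding genes. The median member stood at 24.6 TPM in replicate 1 and 23.9 TPM in replicate 2, and the median detected protein-coding gene at 15.9 and 16.6 TPM. The ratio of these medians was 1.49 ± 0.072 (SD, n = 2). Of the members, 61 lay above the median of detected genes, and the median member sat at percentile 77.7 of all nuclear protein-coding genes. The members were thus moderately abundant and close together: 67 of 78 had mean levels above 10 and up to 50 TPM, 6 lay at or below 10 TPM and 5 above 50 TPM. The level at the upper quartile was 1.89 times that at the lower quartile, where the same ratio over detected protein-coding genes was 5.80. Such a narrow range was not particular to the members. The ratio was 1.77 for cytosolic ribosomal protein genes, 2.13 for nuclear oxidative phosphorylation genes and 1.90 for mitochondrial tRNA synthetases. It was wider for mitochondrial translation factors (2.91) and for assembly and rRNA-modification factors (3.23).

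Mrpl30, a large-subunit protein with a bacterial counterpart, was the highest member, with 74.7 TPM in replicate 1 and 75.8 TPM in replicate 2 (mean 75.2 ± 0.82, SD, n = 2). It lies on chromosome 1 (37890477 to 37898535, plus strand, mm10). Mrps21, a small-subunit protein that lies near the path of the messenger RNA, followed with 59.4 and 64.99 TPM. Mrpl33, another large-subunit protein of bacterial descent, had 54.2 and 61.7 TPM. Mrpl30 was above both in each library, and the ranges of Mrps21 and Mrpl33 overlapped. The next members by mean level were Mrpl17 at 52.7 ± 1.71, Mrpl52 at 51.7 ± 3.70, Mrpl20 at 49.7 ± 3.08, Mrpl58 at 47.5 ± 1.99, Mrps24 at 47.2 ± 0.19, Mrps5 at 44.8 ± 2.62 and Mrps33 at 41.2 ± 2.79 TPM. Each of these 7 differed from the next by less than the sum of their SDs, so their order is not fixed by these libraries. Mrpl58 is also known as a peptidyl-tRNA hydrolase that became a structural part of the ribosome and can release stalled chains.

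At the lower end, Mrpl23 had 2.23 and 3.15 TPM, Mrpl1 had 7.39 and 6.87 TPM and Mrps30 had 7.53 and 7.49 TPM. Mrps28 (8.41 and 8.24 TPM), Mrpl39 (9.34 and 9.95 TPM), Mrpl45 (9.50 and 9.99 TPM), Mrps31 (10.98 and 10.54 TPM) and Mrpl44 (10.55 and 11.72 TPM) came next. By TPM, Mrpl23 stood apart from all others in both libraries. By the posterior mean TPM of the same quantification it was at 6.87 TPM on average, next to Mrpl1 at 6.90 TPM. By TPM, the highest member exceeded the lowest by 28.0-fold, and by 10.6-fold when Mrpl23 was left out. A gene copy shares the coding sequence of Mrpl23, as described further on.

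Members with long transcripts had lower levels. Across the 78 genes, which are not independent replicates and share both libraries, Spearman's rho between transcript length and mean TPM was −0.57, and it was −0.51 when counts were divided by the full length in place of the effective length. Member transcripts were short, with a median length of 1057 bases against 2534 bases for detected protein-coding genes. The effective length in these files is the length minus 99 bases, which raises the TPM of short transcripts more than that of long ones. The order of the members hardly changed between animals, with a rho of 0.98 between the libraries.

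**Figure D1:**
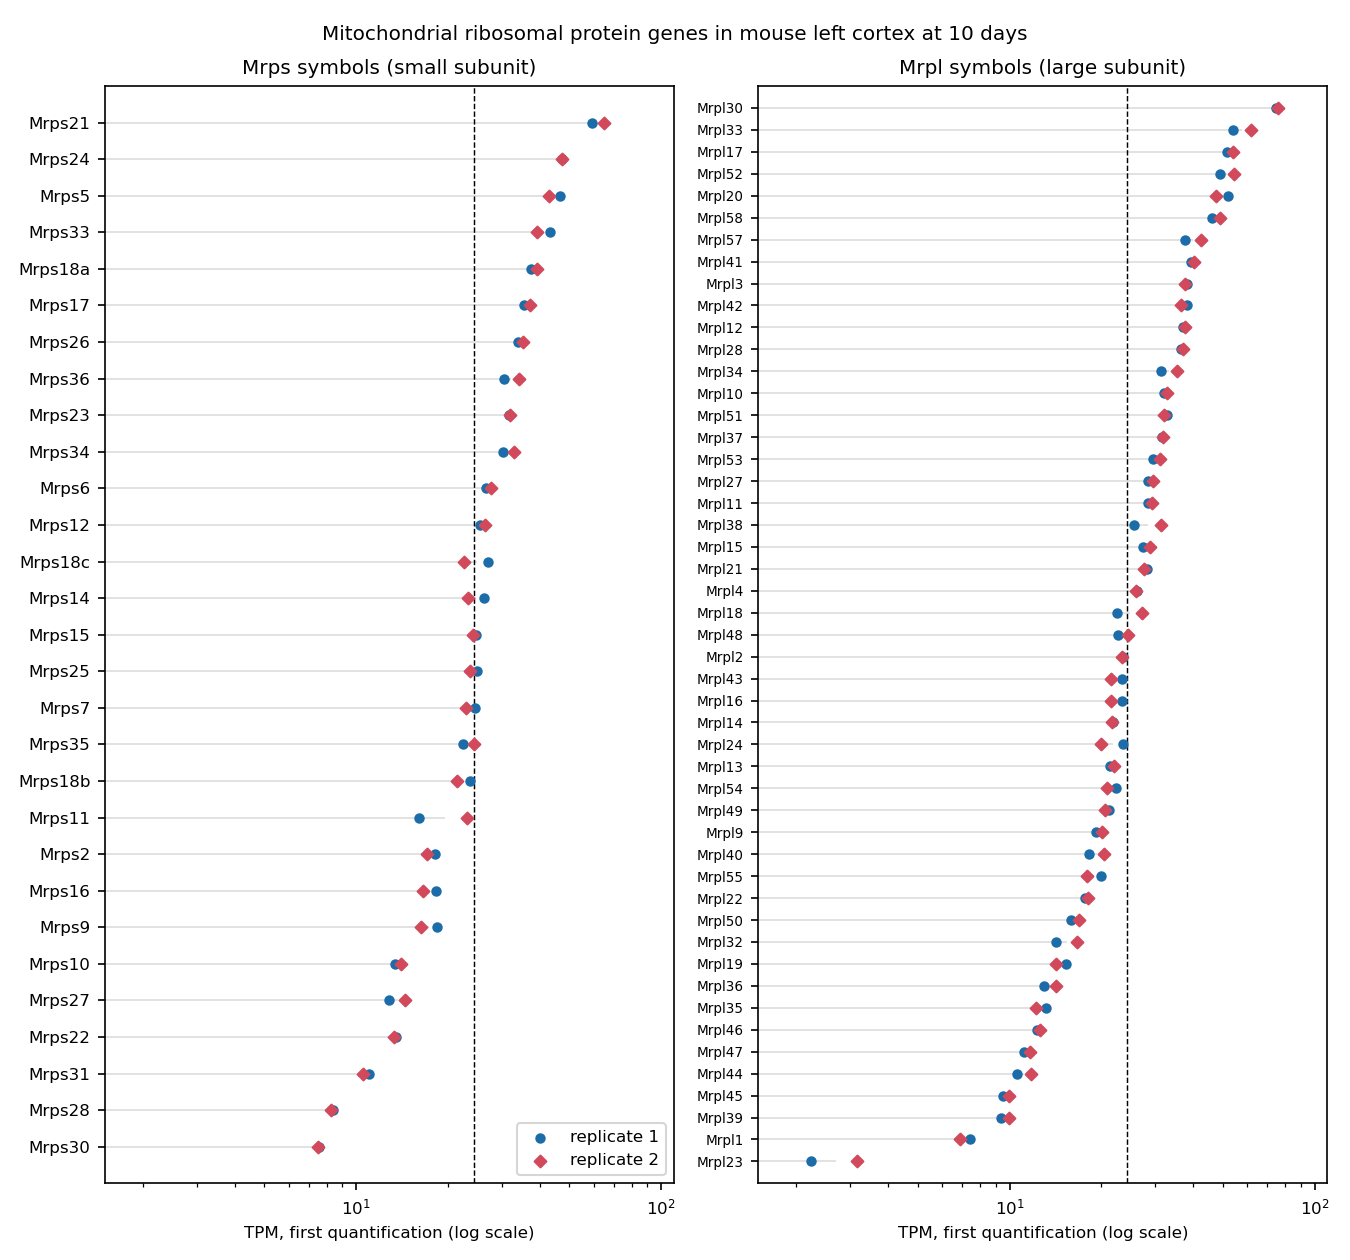
TPM (log scale) of every member in replicate 1 (blue circles) and replicate 2 (red diamonds), small-subunit symbols on the left and large-subunit symbols on the right, with the dashed line at the members' mean median of 24.3 TPM. Most members lie between 10 and 50 TPM, Mrpl30 is highest at 75.2 TPM on average, and Mrpl23 stands apart at 2.69 TPM.

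Every ribosome joins 1 small and 1 large subunit, and the messages of both stood at like levels. The median was 24.8 and 23.6 TPM for small-subunit symbols and 23.5 and 24.5 TPM for large-subunit symbols, a ratio of 1.05 in replicate 1 and 0.964 in replicate 2 (1.01 ± 0.063, SD, n = 2). The direction differed between the libraries, so no difference beyond their spread was seen. When only transcripts annotated as protein-coding were counted, the ratio was 0.751 ± 0.025, with the small-subunit median lower in both libraries. Members with a counterpart in bacteria (46 genes) and those without one (31 genes) had medians with a ratio of 1.00 ± 0.063. Assigning Mrps18a and Mrps30, which sit in the large subunit, to that subunit and leaving out Mrps36, now known as a component of the 2-oxoglutarate dehydrogenase complex, gave a small to large ratio of 1.00 ± 0.067.

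By place in the ribosome, the stalk proteins, which recruit translation factors to the large subunit, had the narrowest range. The 5 stalk genes had a median of 29.6 and 31.2 TPM. Mrpl12, the protein at the tip of the stalk, was their highest at 36.9 and 37.5 TPM, and Mrpl54 their lowest at 22.3 and 20.9 TPM. Mrpl10, Mrpl11 and Mrpl53 lay between them, at 32.5 ± 0.44, 28.8 ± 0.69 and 30.4 ± 1.15 TPM. Of these, Mrpl53 shares its exons with another annotated gene of the same strand, so its level is uncertain.

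The 9 genes for proteins around the exit of the peptide tunnel, where new chains leave the ribosome toward the inner membrane, had the lowest median, at 11.2 and 11.7 TPM. With the gene copy of Mrpl23 counted apart, Mrpl17 was the exception in this group with 51.5 and 53.9 TPM. The other 8 then lay below the median of all members. Mrpl24 had 23.6 and 19.96 TPM, Mrpl22 had 17.7 and 18.1 TPM and Mrpl50 had 15.9 and 16.8 TPM. Mrpl47, Mrpl44, Mrpl45 and Mrpl39 followed, with means from 9.64 to 11.4 TPM, and Mrpl23 was lowest. This place of Mrpl23 holds only with its copy counted apart in the quantification used here. With the copy added, Mrpl23 had 32.8 TPM on average, above the median of all members. In a second quantification, described further on, Mrpl23 had 57.8 TPM on average and lay above Mrpl17 at 42.6 TPM. Mrpl45 is the protein that ties the ribosome to the inner membrane, and Mrpl44 carries a fold of the RNase III family. Without Mrpl23 the median of the group was 13.5 and 14.3 TPM.

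The central protuberance is the crest of the large subunit that faces the small one. Its 9 genes had a median of 22.4 and 24.5 TPM and ran from Mrpl52 (49.1 and 54.3 TPM) to Mrps30 (7.53 and 7.49 TPM). The 9 genes for proteins along the decoding site and the path of the messenger had a median of 24.6 and 23.1 TPM and ran from Mrps21 to Mrps27 (12.8 and 14.5 TPM), a pentatricopeptide-repeat protein. In this group Mrps12, the counterpart of the bacterial decoding-site protein in which streptomycin resistance arises, had 25.5 and 26.5 TPM. The remaining genes with Mrps symbols (19) had a median of 26.2 and 24.2 TPM and ran from Mrps33 (43.2 and 39.2 TPM) to Mrps28. This group follows the symbols, so it also holds Mrps18a and Mrps36, which do not belong to the small subunit. The remaining large-subunit genes (27) had a median of 27.3 and 27.6 TPM and ran from Mrpl30 to Mrpl1. Within each group the range over genes was wider than the SD of any gene over the libraries.

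Mrps18a, Mrps18b and Mrps18c are paralogs that each occupy a different position. Mrps18a had 37.3 and 39.1 TPM, Mrps18b had 23.5 and 21.3 TPM and Mrps18c had 27.0 and 22.6 TPM. Mrps18a was the highest of them in both libraries, and the ranges of Mrps18b and Mrps18c overlapped.

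**Figure D2:**
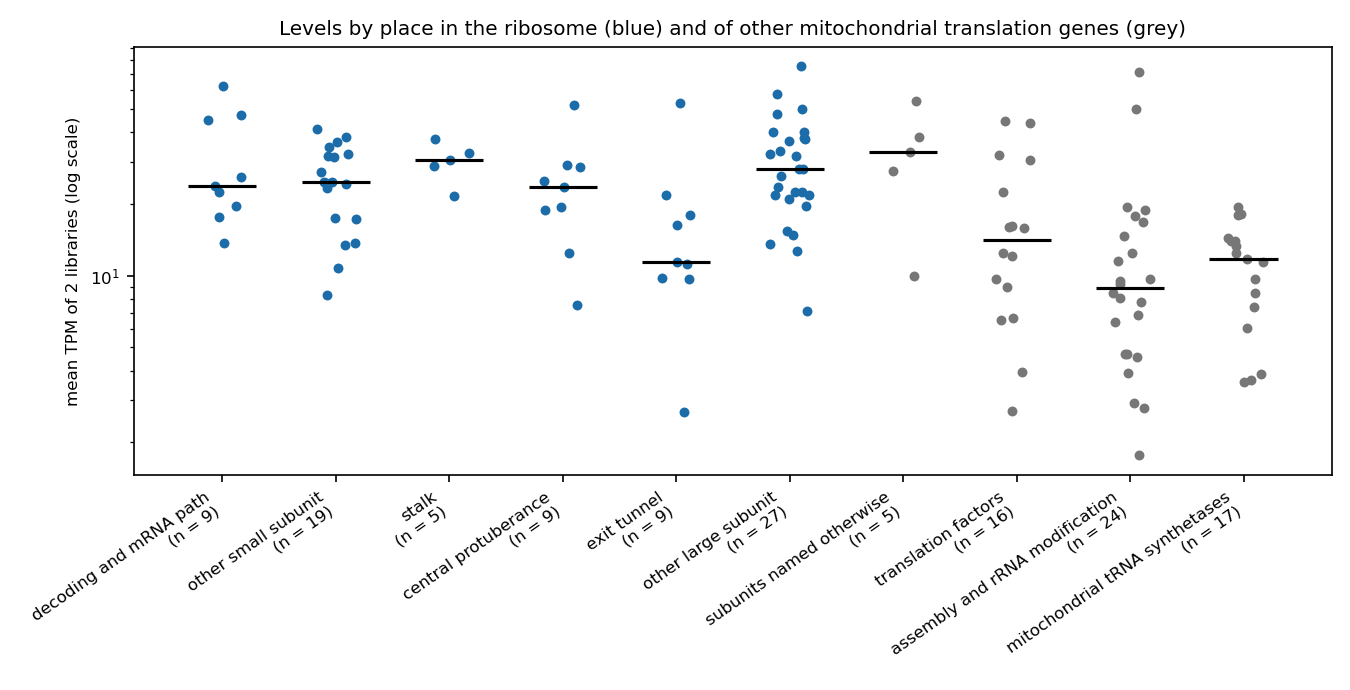
Mean TPM of the 2 libraries (log scale) for members by place in the ribosome (blue) and for other genes of mitochondrial translation (grey), 1 point per gene, with a bar at the median of the gene means. The stalk genes lie between 21.6 and 37.2 TPM, and 8 of the 9 exit-tunnel genes lie below 24.3 TPM, the members' median. Among these 8, Mrpl23 is plotted without its gene copy, and with the copy it has 32.8 TPM. The group of other small-subunit genes follows the symbols and also holds Mrps18a and Mrps36.

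The same ribosome contains proteins whose genes carry other names, and their levels ranged from 10.00 to 53.9 TPM. Dap3, a GTP-binding protein of the small subunit, had 55.9 and 51.9 TPM, and Aurkaip1 had 38.3 ± 0.37 TPM. Ptcd3, a pentatricopeptide-repeat protein, had 35.6 and 30.4 TPM. Chchd1 had 31.3 and 23.7 TPM, and Gadd45gip1, of the large subunit, had 9.91 and 10.09 TPM. Their median was 35.6 and 30.4 TPM, above that of the members in both libraries. Together with translation factors, assembly and rRNA-modification factors and mitochondrial tRNA synthetases they make 62 further genes, and 62 of 62 were detected.

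The other lists, of genes that assemble, feed or assist the ribosome, had lower medians. The members' median exceeded that of 16 translation factors by 1.77 ± 0.13 fold, that of 17 mitochondrial tRNA synthetases by 2.12 ± 0.19 fold and that of 24 assembly and rRNA-modification factors by 2.79 ± 0.17 fold, in the same direction in both libraries. Among translation factors, the elongation factor Tufm had 47.8 and 41.4 TPM. The RNA-binding partners Slirp and Lrpprc, which stabilise mitochondrial messages, had 43.5 ± 1.38 and 32.0 ± 0.24 TPM. The release-factor genes Mtrf1l and Mtrf1 were lowest, at 3.95 ± 0.27 and 2.71 ± 0.56 TPM. The assembly list was led by the helicase Dhx30 (71.5 and 71.1 TPM) and by C1qbp (50.5 and 49.6 TPM), with Mterf3 at 19.5 ± 1.04 TPM. It ended with Tfb1m, the dimethyltransferase of the small rRNA, at 2.78 ± 0.049 TPM and Ybey at 1.77 ± 0.11 TPM. Among the synthetases Vars2 had 14.6 and 24.2 TPM, Tars2 had 18.1 ± 0.57 and Hars2 had 18.0 ± 0.40 TPM, and Ears2 (3.64 ± 0.13 TPM) and Pars2 (3.59 ± 0.33 TPM) were lowest.

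Compared with the other large translation and energy complexes, the members were low. The median of 76 cytosolic ribosomal protein genes was 233.0 and 234.1 TPM, 9.63 ± 0.22 times the members' median. The median of 78 nuclear genes for oxidative phosphorylation subunits, whose partners the mitochondrial ribosome makes, was 120.6 and 117.8 TPM, 4.91 ± 0.018 times the members' median. Summed over genes, the members reached 2067 and 2111 TPM, or 0.431% of nuclear protein-coding TPM, while the cytosolic set was 9.25 ± 0.075 times and the oxidative phosphorylation set 5.98 ± 0.14 times higher. The ribosomal RNAs that these proteins bind were far more abundant: mt-Rnr2 of the large subunit had 36516 and 32169 TPM and mt-Rnr1 of the small subunit had 23455 and 20608 TPM. The median mitochondrial messenger RNA had 1866 and 1493 TPM. These levels of mitochondrial RNA depend on the library method, and the label of the spike-in mix names a profile for rRNA-reduced libraries. Both rRNAs were lower in replicate 2, by log2 ratios of −0.18 and −0.19, while the members' median log2 ratio was 0.03.

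The members differed little between the animals. After adding 0.1 to the TPM of both libraries, the log2 ratio of replicate 2 to replicate 1 was taken where the mean expected count reached 100. This left 77 members (Mrpl23 had too few counts) and 11982 protein-coding genes. The median log2 ratio was 0.03 over members and 0.04 over all genes tested, and its SD over genes was 0.13 for members and 0.19 for all. The quartiles lay closer in width, at −0.07 and 0.08 for members and −0.04 and 0.13 for all. They were −0.05 and 0.02 for 76 oxidative phosphorylation genes and −0.01 and 0.11 for 76 cytosolic ribosomal protein genes. A small spread was thus not particular to the members. The part of expression level in the lower SD of the members was not tested. Of the members, 45 of 77 had a ratio above 1, against 62.4% of all genes tested. Beyond a log2 ratio of 0.32 in size, 1 member was higher in replicate 2, against 5.07% of all genes tested, and 0 members were lower, against 1.87%. Counting error is small for abundant genes, and the counts behind these comparisons ran from 111 to 1063 per member and library.

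The member beyond that limit was Mrps11, a protein of the platform of the small subunit, on chromosome 7 (78783119 to 78792989, plus strand, mm10). It had 16.1 TPM in replicate 1 and 23.1 TPM in replicate 2, a log2 ratio of 0.52. Its counts differed by less: 284 against 328 counts, or 1.19-fold after scaling to the library total, with an exact 95% Clopper-Pearson interval from 1.02 to 1.41 that covers counting error only. The larger TPM ratio went with a different assignment of its reads to transcripts. Mrps11-205, which is annotated as a target of nonsense-mediated decay and is shorter than the coding Mrps11-201 (825 against 1056 bases), held 35.5% of the gene's TPM in replicate 1 and 58.7% in replicate 2, while Mrps11-201 held 54.7% and 15.6%. The second quantification put 0% on Mrps11-205 in both libraries and gave 26.7 and 33.5 TPM for the gene, a log2 ratio of 0.325 that also passed the limit. With counts scaled by the library total, by TMM, by size factors or by the spike-ins, the log2 ratio of Mrps11 was 0.25, 0.23, 0.23 and 0.27 and did not pass that limit.

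The next members higher in replicate 2 were Mrpl38 (log2 ratio 0.30), Mrpl18 (0.28), Mrpl32 (0.22) and Mrpl33 (0.19), and those lower were Mrps18c (−0.25), Mrpl24 (−0.24), Mrps14 (−0.17), Mrps9 (−0.17) and Mrpl55 (−0.16). These directions depended on the processing for 3 genes. In the second quantification the log2 ratio was 0.11 for Mrpl24 and 0.057 for Mrps9, and that of Mrpl32 was −0.011 with CPM, −0.036 with TMM and −0.038 with DESeq2 size factors. The exact interval of the count ratio excluded 1 for 4 of the 77 members, against 24.3% of all genes tested. These were Mrps11 and Mrpl17 upward, against 15.6% of genes tested, and Mrpl24 and Mrps9 downward, against 8.67%. The width of an interval depends on the counts, and the part of depth in these shares was not tested. No p-value is given, since there is 1 library per animal.

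Several members have processed pseudogenes, copies of the spliced message pasted back into the genome, and these can take reads from the gene. A search of all annotated transcripts found 19 such copies for 16 members, with at least 95% identity over at least 200 bases and over at least 80% of the copy. Only 5 of the 19 had a mean expected count of at least 20, namely Mrpl23-ps1, Gm5776 (a copy of Mrps33), Gm13328 (of Mrps5), Mrpl48-ps and AC154457.3 (of Mrps10).

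Mrpl23 and Mrpl23-ps1 are the extreme case. The gene lies on chromosome 7 (142532686 to 142540747, plus strand, mm10), and the copy on chromosome 2 (74591330 to 74591909). They share 540 aligned bases with 0 differences, and these include the whole coding sequence of 441 bases. The first 60 coding bases of Mrpl23-201 and the matching bases of the copy, from the annotated transcripts of GENCODE M21, are printed here because a read that lies within them matches both:
Mrpl23-201: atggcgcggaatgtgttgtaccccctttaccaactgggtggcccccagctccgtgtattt
Mrpl23-ps1-201: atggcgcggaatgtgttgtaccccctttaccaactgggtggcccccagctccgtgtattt

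In the first quantification Mrpl23 held 69.75 counts in replicate 1 and 83.49 in replicate 2, while its copy held 288.25 and 294.51, or 80.5% and 77.9% of their sum. In the second quantification the copy was listed at 0 in both libraries and Mrpl23 was at 55.8 and 59.8 TPM. With the copy added, Mrpl23 in the first quantification reached 31.4 and 34.2 TPM (32.8 ± 1.98). This was near the members' upper quartile of 33.1 TPM, which was taken with copies counted apart. Its wide distance from the other members therefore holds only for the TPM of the first quantification with the copy counted apart.

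Mrps33 shows the same arrangement with a base that differs. Its copy Gm5776 on chromosome 7 (54412158 to 54412478) matches the 321 coding bases with 1 difference, and the base that differs is in capitals here, at coding bases 141 to 200:
Mrps33-201: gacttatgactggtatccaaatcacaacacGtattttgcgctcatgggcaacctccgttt
Gm5776-201: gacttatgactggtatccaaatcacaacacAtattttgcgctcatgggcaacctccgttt

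Gm5776 took 53.92 and 62.46 counts beside the 657.08 and 571.54 counts of Mrps33, or 7.58% and 9.85% of their sum. The animals are hybrids and the reference holds 1 parental allele, and whether the other parent carries the same base was not tested.

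Other members share sequence with a neighbour at the same locus. Exonic sequence of 11 members matched a gene of the opposite strand at the same locus over at least 200 bases, and shorter overlaps were not counted. Mrps25 shared 3533 bases with Nr2c2, Mrpl48 shared 409 bases with Rab6a and Mrps34 shared 504 bases with Mapk8ip3, and these neighbours had 5325.66, 11032 and 11438.01 counts in replicate 1. The sources used here do not state the strand setting of the counting, so reads over such overlaps could belong to either gene. On the same strand, Mrpl53 shared 695 bases with Gm42688, which took 213.83 and 230.63 counts beside the 363.42 and 367.63 of Mrpl53, and Mrps6 overlapped Gm49711.

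The second quantification gave higher values for 77 of 78 members, with a median log2 ratio to the first of 0.70 over members and 0.61 over detected protein-coding genes. Of the 78 members, 2 lay more than 2-fold from the median of detected genes, namely Mrpl23 (log2 ratio 4.37) and Mrpl27 (1.71). This is no smaller a share than the 1.35% of detected genes (176 of 13080). Mrpl27, the counterpart of a bacterial protein near the peptidyl-transferase centre, had 28.4 and 29.6 TPM in the first quantification and a mean of 94.9 TPM in the second. There the processed transcripts Mrpl27-202 and Mrpl27-203, of 439 and 442 bases, held 20.1% and 34.9% of its TPM in replicate 1, and in the first quantification each held 0%. The next farthest from the members' median were Mrpl35 and Mrpl3 (1.33 each), Mrpl48 (1.21) and Mrpl17 (−0.31). Mrpl17 was the only 1 of these 6 that was lower in the second quantification. Across members, rho between the quantifications was 0.88, below that between the animals.

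**Figure D3:**
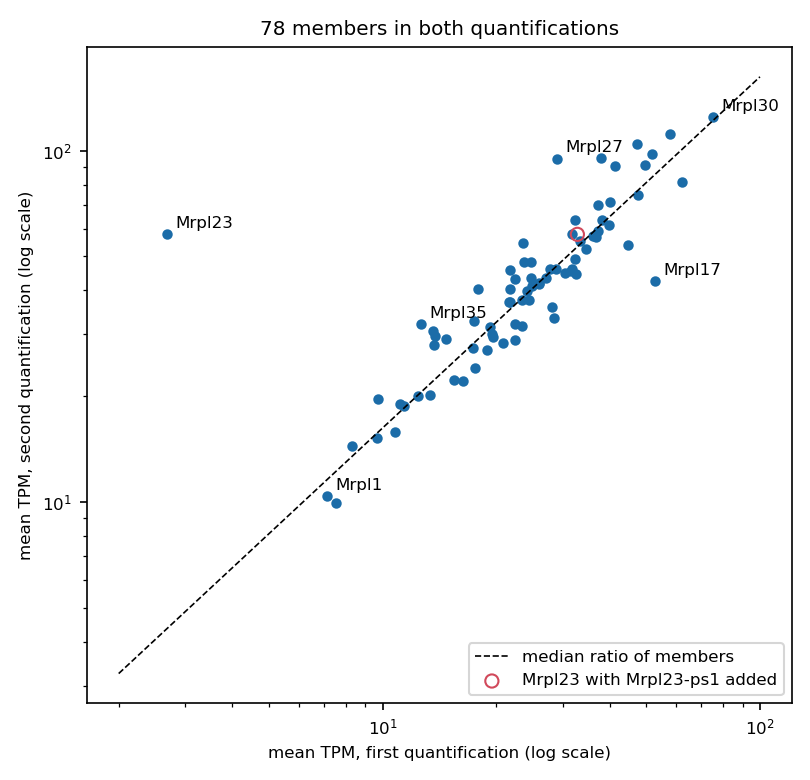
Mean TPM of the 2 libraries in the first (x axis) and second (y axis) quantification, both on log scales, for the 78 members, with the dashed line at the members' median ratio. Mrpl23 and Mrpl27 lie far above the line and Mrpl17 below it, and the open circle shows Mrpl23 at 32.8 TPM once its copy is added.

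Not all of a member's RNA was assigned to transcripts that encode the protein. The 78 genes have 343 annotated transcripts, of which 170 are protein-coding, 88 are annotated to retain an intron, 61 are processed transcripts without a reading frame and 24 are annotated targets of nonsense-mediated decay. Protein-coding transcripts held 73.5% and 72.3% of the members' summed TPM, intron-retaining transcripts 13.7% and 14.7%, processed transcripts 7.50% and 7.81%, and decay targets up to 5.24%. For the median member the protein-coding share was 87.4% in replicate 1 and 86.2% in replicate 2, against 89.3% for the median detected protein-coding gene.

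In 17 of 78 members (21.8%) the transcript with the highest share was not protein-coding, against 7.09% of detected protein-coding genes. The second quantification gave 17 as well, against 8.83%, and 13 members were in both sets, 11 of them with the same transcript. Cytosolic ribosomal protein genes had 19.7% and 26.3% in the first and second quantification, and oxidative phosphorylation genes 12.8% and 24.4%. Both sets thus also lay above detected protein-coding genes. The part of transcript length and level in these shares was not tested. Both quantifications named the same leading transcript in 58 of 78 members, against 78.4% of detected genes. Between the animals it was the same for 73 members by the first quantification and for 75 by the second.

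In the first quantification the lowest protein-coding shares were found in Mrpl57, Mrps26, Mrps16, Mrpl51, Mrpl15 and Mrps25. The order differed in the second, where Mrps24 had a mean share of 6.05%, below the 7.80% of Mrps26. In Mrpl57 the intron-retaining Mrpl57-202, with 519 bases in 1 exon, held 91.8% and 93.4% of the TPM, and the coding Mrpl57-201, with 2877 bases, held 8.21% and 6.59%. In counts the difference was smaller, with 298.49 and 327.35 counts on the former and 176.51 and 152.65 on the latter, because TPM divides by length. In Mrps26 the intron-retaining Mrps26-201 held 91.7% and 91.9% of the TPM, and 613.53 and 611.11 counts against 241.47 and 234.89 on the coding Mrps26-202. Both quantifications gave these orders. The protein-coding level of Mrpl57 was 3.10 and 2.79 TPM and that of Mrps26 was 2.82 and 2.85 TPM, where the gene levels were 40.04 ± 3.28 and 34.6 ± 0.86 TPM.

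Mrps16 (leading transcript Mrps16-202), Mrpl51 (Mrpl51-202), Mrpl15 (Mrpl15-202) and Mrpl47 (Mrpl47-202) were led by processed transcripts in both quantifications. Mrps25 (Mrps25-201), Mrps24 (Mrps24-201) and Mrps5 (Mrps5-206) were led by intron-retaining ones, and Mrpl32 (Mrpl32-201) and Mrpl3 (Mrpl3-204) by decay targets, also in both. Mrpl19 had a non-coding leader in both, but not the same one: Mrpl19-203 in the first and Mrpl19-202 in the second. The 4 members led by a non-coding transcript in the first quantification alone were Mrps14, Mrps11, Mrpl13 and Mrpl23, and the 4 in the second alone were Mrpl17, Mrpl33, Mrpl35 and Mrps7.

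Mrps14 shows how far the tools differed. The decay target Mrps14-201 held 85.3% and 88.6% of its TPM in the first quantification and 0% in the second, where protein-coding transcripts held 100%. The level of the gene was 26.2 and 23.2 TPM in the first and its ratio to the second was near that of other members, at a log2 of 0.81. Mrpl13 was closer to even, with a protein-coding share of 42.6% and 41.7% in the first quantification and 54.7% and 53.8% in the second.

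**Figure D4:**
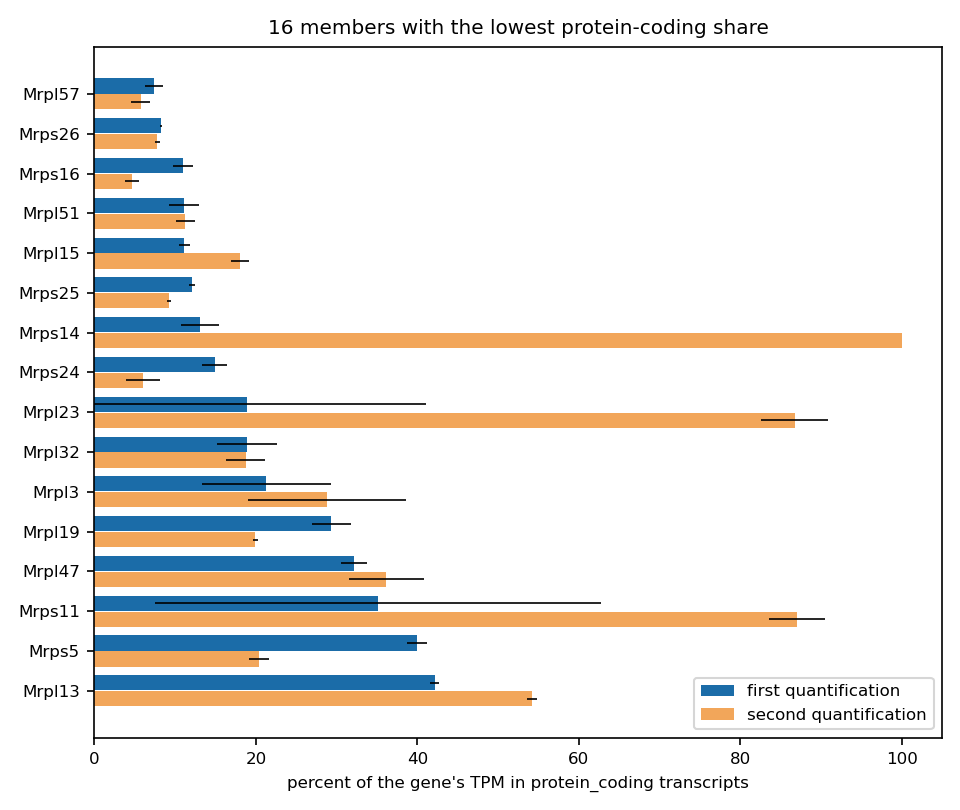
Percent of the gene's TPM in protein-coding transcripts for the 16 members with the lowest share in the first quantification. Values are means of the 2 libraries in the first (blue) and second (orange) quantification, with bars for the SD (n = 2). Both quantifications give low shares for Mrpl57, Mrps26, Mrps16, Mrpl51, Mrpl15 and Mrps25. Among the 16 shown, they differ most for Mrps14, Mrpl23 and Mrps11. Mrpl17, with 82.5% in the first and 21.8% in the second, is not shown.

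Many members start next to a neighbour that runs the other way. A head-to-head partner, meaning a protein-coding gene on the opposite strand whose annotated start lies within 1000 bases of the member's start so that the genes run apart, was found for 33 of 78 members (42.3%). The same holds for 15.2% of detected and 10.7% of all protein-coding genes. The starts were up to 935 bases apart (Mrpl41 and Pnpla7), and in 15 of the 33 the gene records overlapped at their 5′ ends. Mrpl46 and Mrps11, 1 gene from each subunit, are partners of each other, with 12.3 and 12.6 TPM for Mrpl46 and 16.1 and 23.1 TPM for Mrps11.

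Other partners also act in mitochondria. Mrps12 starts 172 bases from Sars2, the mitochondrial seryl-tRNA synthetase, and Mrps27 starts 81 bases from Ptcd2, a mitochondrial RNA-binding protein. Mrpl43 is paired with Twnk, the helicase of mitochondrial DNA, and Mrpl36 and Mrpl47 with the complex I subunit genes Ndufs6 and Ndufb5. Partners could differ widely in level. Mrpl36 had 13.0 and 14.2 TPM where Ndufs6 had 85.3 and 88.2 TPM, and Mrpl47 had 11.2 and 11.6 TPM where Ndufb5 had 90.5 and 89.4 TPM. Mrpl49 had 21.1 and 20.6 TPM beside 332.4 and 349.7 TPM of Fau, which encodes a cytosolic ribosomal protein. In the other direction, Mrpl30 had 74.7 and 75.8 TPM and its partner Mitd1 4.31 and 4.32 TPM, and Mrpl57 had 37.7 and 42.4 TPM where Ska3, a kinetochore gene, had 0.96 and 0.78 TPM. In both libraries 20 members were higher than their partner and 12 were lower, and Mrps7 against Gga3 changed sides. All partners named in this paragraph were chosen after their values were seen.

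**Figure D5:**
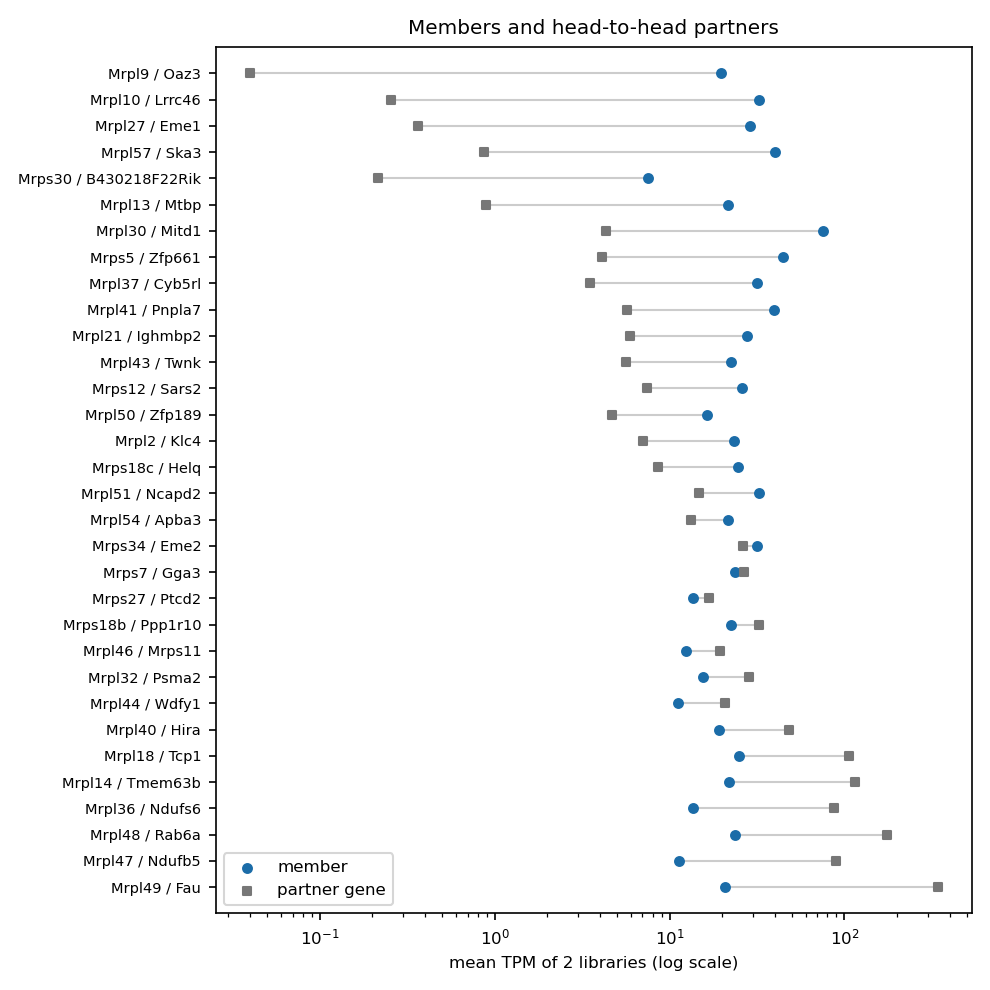
Mean TPM of the 2 libraries (log scale) of each member with a head-to-head partner (blue circles) and of that partner (grey squares), 1 row per pair, ordered by the ratio, with the pair of Mrpl46 and Mrps11 shown once. Members run from 7.51 to 75.2 TPM, while the partners spread from 0.04 TPM (Oaz3) to 341.1 TPM (Fau).

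Promoter sequences of 300 bases, from 250 bases before to 50 after the annotated start, were taken from RefSeq (GRCm38.p6) and matched 69 of the 78 members with 75 starts. They were searched on both strands for the letters of 5 motifs, none of which contains another. CCGGAAG, the core of sites bound by ETS factors such as GABPA, was present in 34.7% of member promoters and in 8.86% of all 32851 promoters. AAGATGGC, the core of YY1 sites, was present in 12 of 75 member promoters and in 2.75% of all. The palindromic core of NRF1 sites was present in 4.00% against 0.971%, in Mrpl9, Mrpl32 and Mrpl39. CCAAT was present in 30 of 75 member promoters and in 37.4% of all, and TATAAA in 6.67% against 13.6%. Member promoters had a median GC content of 58.7% and all promoters 52.7%, and the part of GC content in these shares was not tested. A match is a run of letters and no evidence of binding, and 32 members with a promoter held none of the ETS, YY1 and NRF1 letters.

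Stretches of 60 bases before the gene records are shown for 4 members with the ETS letters, which are in capitals and read CTTCCGG where they lie on the other strand. They are examples, picked among the stretches that end before the gene record of the member. That of Mrps27 lies between its start and that of its partner Ptcd2.
Mrpl58, chr11:115403692-115403751, plus strand: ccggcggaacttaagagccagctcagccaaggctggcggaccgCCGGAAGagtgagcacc
Mrpl52, chr14:54426835-54426894, plus strand: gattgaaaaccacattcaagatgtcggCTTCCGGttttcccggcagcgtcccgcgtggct
Mrps22, chr9:98601680-98601739, minus strand: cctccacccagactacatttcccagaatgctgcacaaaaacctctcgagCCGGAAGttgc
Mrps27, chr13:99344711-99344770, plus strand: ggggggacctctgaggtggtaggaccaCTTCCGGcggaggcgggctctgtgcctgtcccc

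The letters begin 17 bases before the RefSeq start in Mrpl58, 47 in Mrpl52, 11 in Mrps22 and 48 in Mrps27. The levels of these genes ranged from 13.4 ± 0.18 TPM for Mrps22 and 13.7 ± 1.18 TPM for Mrps27 to 47.5 ± 1.99 TPM for Mrpl58 and 51.7 ± 3.70 TPM for Mrpl52, so members with the letters near their start differed in level far beyond the SD of the libraries.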

How the data were processed

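Total RNA of 2 libraries was analysed, 1 library per animal in 1 group. The authors deposited 3 tables per library on mm10 with GENCODE M21, per the deposited descriptions. Per the file headers, the first quantification holds expected counts and TPM per gene and transcript, with posterior mean TPM, and the percent of a gene's abundance on each transcript (IsoPct). The second holds a table of transcripts with estimated counts and TPM, here summed for each gene. Program names, versions and strand setting: not given in the sources used here.

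Levels are TPM of the first quantification, and detection means at least 1 TPM in both libraries. The ratio of libraries adds 0.1 TPM and needs a mean expected count of 100. Expected counts were rounded for TMM factors (edgeR 4.0.16) and size factors (DESeq2 1.42.0) under R 4.3.3. No group comparison exists, so these served for scaling alone. Counts give exact 95% Clopper-Pearson intervals, and these cover counting error only, since reads lack molecular identifiers. The libraries differed beyond counting noise (chi-square per degree of freedom 5.06 over 18515 genes), so they are not 1 library deposited again. Copies were sought with BLAST 2.17.0, and the ratio script was tested on simulated data.

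Members and lists were chosen with earlier results of these data known. Places in the ribosome, bacterial counterparts and other lists come from textbook knowledge (1 neuron marker is not reported here), and the cytosolic ribosomal and oxidative phosphorylation sets from symbols. Genes are named by rule: the 10 highest and 8 lowest members, the extremes of each place, paralogs, the 5 members with the highest and the 5 with the lowest ratio of libraries, the 6 farthest between quantifications, those led by a non-coding transcript (1 is not reported here), the 6 lowest coding shares, all subunits with other names, and the 3 highest and 2 lowest of each other list. Named beyond that rule, after their values were seen, were the remaining stalk and exit-tunnel genes, Mrps12, head-to-head partners, genes sharing sequence and those with printed promoters. Alternatives were other scalings, quantifications, thresholds and leaving out each library.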

Additional observations from a re-analysis of the deposited data

How the results depend on the processing

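Of 64 alternative values over 10 results, 47 stayed near the main value and 17 moved. Near meant within the SD of the libraries, 1.5 times the count or, for the median log2 ratio, a fixed small distance. A reversal needed a ratio of levels farther from 1 than its SD. Neither such ratio was, so none of the 64 could be labelled reversed. With 2 libraries, leaving 1 out always stays within their SD, so it could not move a level, level ratio or share. Rescaling could not move a level ratio either. The median log2 ratio changed sign with TMM and DESeq2 size factors and was labelled moved. The members' median level was 41.6 TPM in the second quantification, 49.996 TPM after rescaling to nuclear protein-coding genes, 26.3 TPM per full transcript length and 18.1 TPM over protein-coding transcripts alone. Their summed level was 3582, 4305 and 2238 TPM under the first 3 of these and 2145 TPM with pseudogene copies added. The small to large subunit ratio was 0.751 over protein-coding transcripts. The median log2 ratio of the libraries was 0.0054 with CPM, −0.020 with TMM and −0.021 with DESeq2 size factors, where the median of all protein-coding genes tested was 0.02, −0.0030 and −0.0041. Beyond a log2 ratio of 0.32 lay 0 members with CPM, TMM, size factors or spike-in scaling, and 2 (Mrps11 and Mrpl23) with no count minimum. The cause of these moves was not tested, except that the alternatives change the scale or the transcripts counted. With either library left out, the median level was 23.9 to 24.6 TPM, the summed level 2067 to 2111 TPM, the small to large ratio 0.964 to 1.05, and the members led by a non-coding transcript 16 in each case. At a threshold of 5 TPM 77 members were detected. Coding-only, copy and unified-name settings were chosen after seeing the data. No paired analysis was possible because there is only 1 group. The median member had 475.5 counts, which limits the precision of its transcript shares.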
